A study of Homo sapiens with 6 samples.

Results

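ZEB1 and ZEB2, the microRNAs of the miR-200 family and the genes CDH1, VIM and FN1 were read in HCT116 cells that carry an empty vector and in HCT116 cells whose labels give them extra miR-196b. The members were the probe sets that the platform annotation pairs with one of these 10 gene symbols. Of the 10 genes, 9 had a probe set, with 11 probe sets in all (3 for VIM and 1 for each other gene), among 14884 genes and 16098 probe sets with a symbol. CDH1 was not analysed here. HCT116 is an established human colorectal carcinoma line of epithelial form. Both groups were stably transduced, 3 arrays with the empty vector (control) and 3 with the label miR-196b overexpression, and total RNA was read on whole-transcript arrays. By the labels, the arrays within each group are biological replicates. The labels do not name the vector or say whether a group is a clone, a pool or several transductions, so the p-values reflect the spread among these samples, which may be technical.

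ZEB1 and ZEB2 are zinc finger repressors that bind E-box sequences and silence epithelial genes, among them CDH1, which encodes the adhesion protein E-cadherin. The microRNAs of the miR-200 family bind the messenger RNAs of ZEB1 and ZEB2 and lower their output, and the ZEB proteins in turn repress transcription of both miR-200 clusters. This double-negative loop is known as a switch of the epithelial-mesenchymal transition (EMT), in which epithelial cells lose junctions and gain the intermediate filament protein vimentin (VIM) and the matrix protein fibronectin (FN1).

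The 5 microRNA genes lie in 2 clusters. MIR200B, MIR200A and MIR429 lie within 1953 bases on chromosome 1 (chr1:1167124-1169076, plus strand), and MIR200C and MIR141 within 474 bases on chromosome 12 (chr12:6963703-6964176, plus strand). Positions and sequences are those of RefSeq on GRCh38.p14 and run over the mature microRNAs, which matched for all 5 genes. The mature arms that act on ZEB1 and ZEB2 are shown to set out the family's seeds, with bases 2 to 8, the seed that pairs with a target, in capitals. The first 3 share one seed:
hsa-miR-200b-3p: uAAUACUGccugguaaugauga
hsa-miR-200c-3p: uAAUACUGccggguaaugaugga
hsa-miR-429: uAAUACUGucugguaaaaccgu
The other 2 share a second seed:
hsa-miR-200a-3p: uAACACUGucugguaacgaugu
hsa-miR-141-3p: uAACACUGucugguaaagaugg

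Each cluster holds both seeds. Counted from the 5′ end, the seeds differ by the substitution U4C, from miR-200b to miR-200a and likewise from miR-200c to miR-141. Across clusters, miR-200b and miR-200c are the same at 20 of 22 positions compared, and miR-200a and miR-141 likewise at 20 of 22. The microRNA of the study has another seed, printed here with its close relative:
hsa-miR-196b-5p: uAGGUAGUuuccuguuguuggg
hsa-miR-196a-5p: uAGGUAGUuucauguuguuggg

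These 2 differ at 1 position, C12A, outside the seed. The array reads precursor transcripts, so none of the values below is a level of a mature microRNA.

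The MIR196B probe set was at 7.91 to 8.09 in control and 7.93 to 8.21 in the labelled arrays (log2). The MIR196A2 probe set was at 2.88 to 3.21 in control and 10.5 to 10.8 in the labelled arrays. The groups thus overlapped at MIR196B and lay far apart at MIR196A2, and the directions below are those of the arrays as labelled. Fold changes are log2 differences, labelled minus control, from limma fitted to all 16098 named probe sets, with Benjamini-Hochberg adjusted p-values and calls below 0.05. That fit called 9 probe sets, or 0.0559% (0.0248% higher and 0.0311% lower), and 0.0224% in a fit of every probe set of the array. At an unadjusted p below 0.05 it gave 9.87% (5.73% higher and 4.14% lower), and the 2 groups did not overlap at 17.2% (10.0% higher and 7.18% lower).

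None of the 11 member probe sets passed the adjusted test (limma adjusted p = 0.160 to 0.904). FN1 came closest and was higher in all 3 labelled arrays. ZEB1 and VIM had estimates above 0, MIR200B, MIR200C and MIR141 below 0, and ZEB2, MIR200A and MIR429 went the other way from their partners. At an unadjusted limma p below 0.05 there were 4 of 11 (FN1, VIM at 16712274, MIR200B and ZEB1), beside 9.87% of all named probe sets. The groups did not overlap at 4 of 11, beside 17.2%. Of these, 3 were higher (FN1 and 2 probe sets of VIM) and 1 was lower (MIR200B). The median change over the 11 was 0.17, against 0.0069 over all named probe sets, and the median size regardless of sign 0.29, against 0.097. The members were chosen with earlier results known, so these counts describe them only. By mean level over the 6 arrays, 6 of the 11 lay in the dimmest 40% of named probe sets (ZEB2, MIR200A, MIR200B, MIR429 and VIM at 16702767 and 16712274), where the values are closest to the floor of the array.

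**Figure D1:**
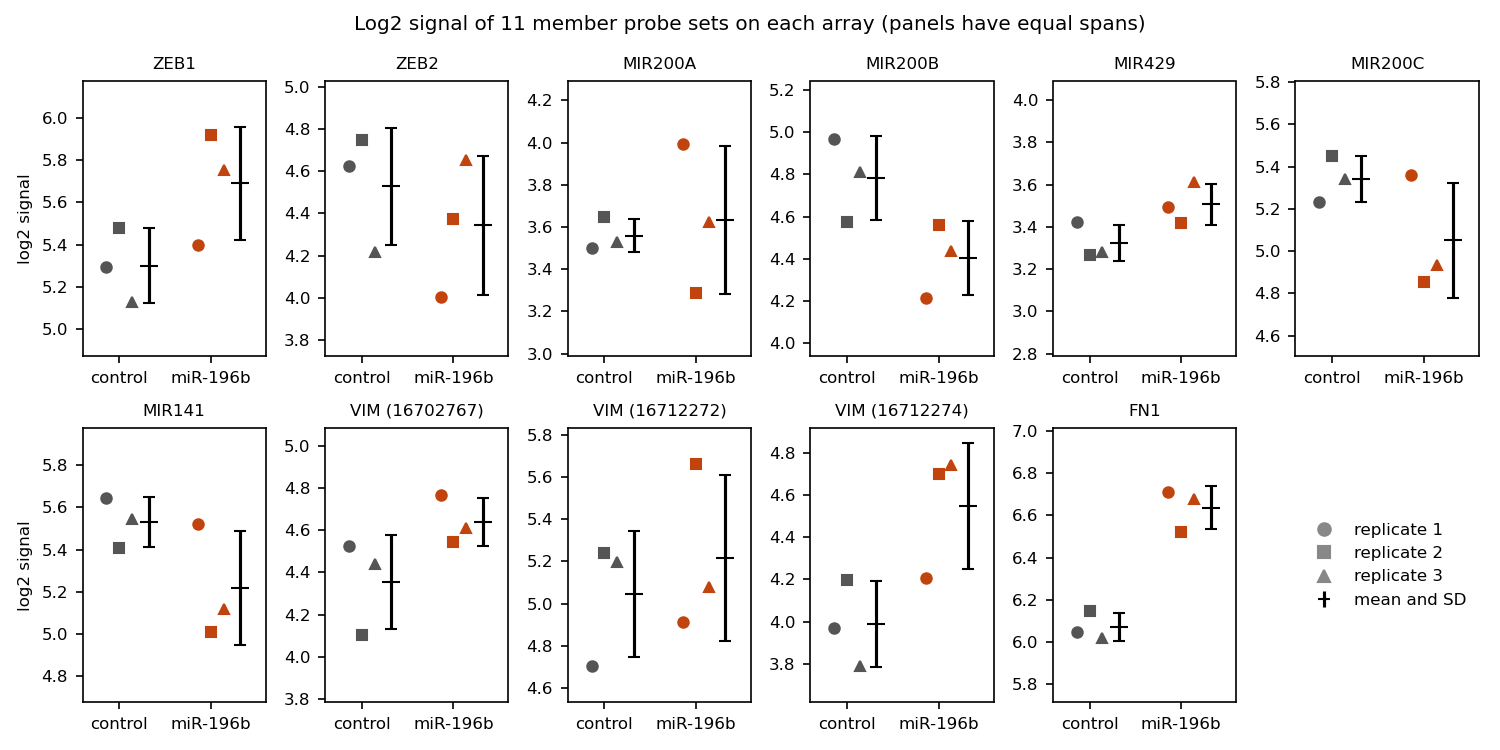
Log2 signal (y axis) of the 11 member probe sets on each of the 3 control arrays (grey) and the 3 arrays labelled miR-196b (orange), with marker shape for the replicate number and bars for mean and SD; every panel spans the same range. FN1 shows the widest gap between the groups, and labelled replicate 1 lies among the control arrays for ZEB1, MIR200C and MIR141.

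ZEB1 is the better studied of the 2 repressors in carcinoma cells. Its probe set was at 5.29, 5.48 and 5.13 in control replicates 1, 2 and 3 and at 5.40, 5.92 and 5.76 in the labelled ones (log2). Labelled replicates 2 and 3 lay above every control array, while labelled replicate 1 lay below control replicate 2, so the groups overlapped. The mean went from 5.30 ± 0.18 to 5.69 ± 0.27 (mean and SD of 3 arrays, log2), a change of 0.39 (SE 0.15, 95% interval 0.032 to 0.75; limma adjusted p = 0.482). That estimate is 1.31-fold higher and did not pass the test.

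ZEB2, its paralogue, was at 4.62, 4.75 and 4.22 in control and at 4.002, 4.37 and 4.65 in the labelled arrays (log2). The arrays of the 2 groups were interleaved. The log2 change was -0.19 (95% interval -0.65 to 0.27, limma adjusted p = 0.776), and the interval holds changes in either direction. It was -0.016 without labelled replicate 1 and -0.34 without control replicate 3 or labelled replicate 3. The difference between the ZEB1 and ZEB2 changes was not tested.

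Antisense transcripts start beside both ZEB genes. ZEB1-AS1, next to ZEB1, had a log2 change of 0.095 (limma adjusted p = 0.761), with overlapping groups. ZEB2-AS1 had 2 probe sets, at 3.82, 3.93 and 4.05 in control and 3.46, 3.12 and 3.51 in the labelled arrays for 16903396, and at 2.53, 2.64 and 2.89 against 2.42, 2.53 and 2.55 for 16886246 (log2). All 3 labelled arrays lay below all controls at 16903396 (log2 change -0.57, limma adjusted p = 0.318) and the groups overlapped at 16886246 (-0.19, adjusted p = 0.595). Neither passed.

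Around each member and antisense probe set, probe sets with nearby numbers belonged mostly to one chromosome and one strand. Of the 20 probe sets nearest in number to the 16886246 probe set, 20 belong to chromosome 2 genes on the plus strand, the strand of ZEB2-AS1. Of the 20 nearest to 16903396, 19 belong to minus-strand genes of chromosome 2, the strand of ZEB2. The probe set with the larger difference is thus numbered among genes of the strand opposite to the one its name gives. Probe positions were not used here, so the strand each reads is not settled.

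The chromosome 12 cluster gave near-equal differences at its 2 genes. MIR200C was at 5.23, 5.45 and 5.34 in control and at 5.36, 4.86 and 4.93 in the labelled arrays (log2). MIR141 was at 5.64, 5.41 and 5.55 in control and at 5.52, 5.01 and 5.12 in the labelled arrays. At both, labelled replicates 2 and 3 lay below every control array and labelled replicate 1 lay within the control range. The log2 change was -0.29 for MIR200C (95% interval -0.63 to 0.043, limma adjusted p = 0.545) and -0.31 for MIR141 (-0.65 to 0.021, adjusted p = 0.513). Neither passed. Both probe sets may read one precursor transcript, so they are not counted as separate evidence.

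Labelled replicate 1 was the labelled array nearest the controls at these 2 probe sets and at ZEB1. Without it the log2 change was -0.45 for MIR200C (adjusted p = 0.422), -0.47 for MIR141 (0.423) and 0.54 for ZEB1 (0.444), all by limma and all short of the threshold. Leaving out the array nearest the controls can only widen a difference. Without labelled replicate 2 the estimates were smaller, at -0.19 for MIR200C (adjusted p = 0.698), -0.21 for MIR141 (0.664) and 0.28 for ZEB1 (0.591). FN1 had 0.53 without labelled replicate 1 (adjusted p = 0.3997) and 0.62 without labelled replicate 2 (0.245).

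The chromosome 1 cluster was not of one direction. MIR200B was at 4.97, 4.57 and 4.81 in control and at 4.21, 4.56 and 4.44 in the labelled arrays (log2). All labelled arrays lay below all control arrays, with 0.011 between the nearest 2. The estimate was -0.38 on the log2 scale (SE 0.13, 95% interval -0.69 to -0.071; 1.30-fold lower, limma adjusted p = 0.444). MIR200A was at 3.50, 3.65 and 3.53 in control and at 3.99, 3.29 and 3.62 in the labelled arrays, which lay on both sides of the controls. Its log2 change was 0.074 (95% interval -0.32 to 0.47, limma adjusted p = 0.904). MIR429 was at 3.42, 3.27 and 3.28 in control and at 3.49, 3.42 and 3.61 in the labelled arrays. Its groups overlapped by the lowest labelled array alone, with a log2 change of 0.18 (95% interval -0.019 to 0.39, limma adjusted p = 0.527). All 3 lay in the dimmest 40% of probe sets.

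Grouped by seed, MIR200B, MIR200C and MIR429, which share one seed, had log2 changes of -0.38, -0.29 and 0.18. MIR200A and MIR141, which share the other, had 0.074 and -0.31. Neither seed group was of one sign. Grouped by cluster, the chromosome 12 pair was of one sign and the chromosome 1 trio was not.

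**Figure D2:**
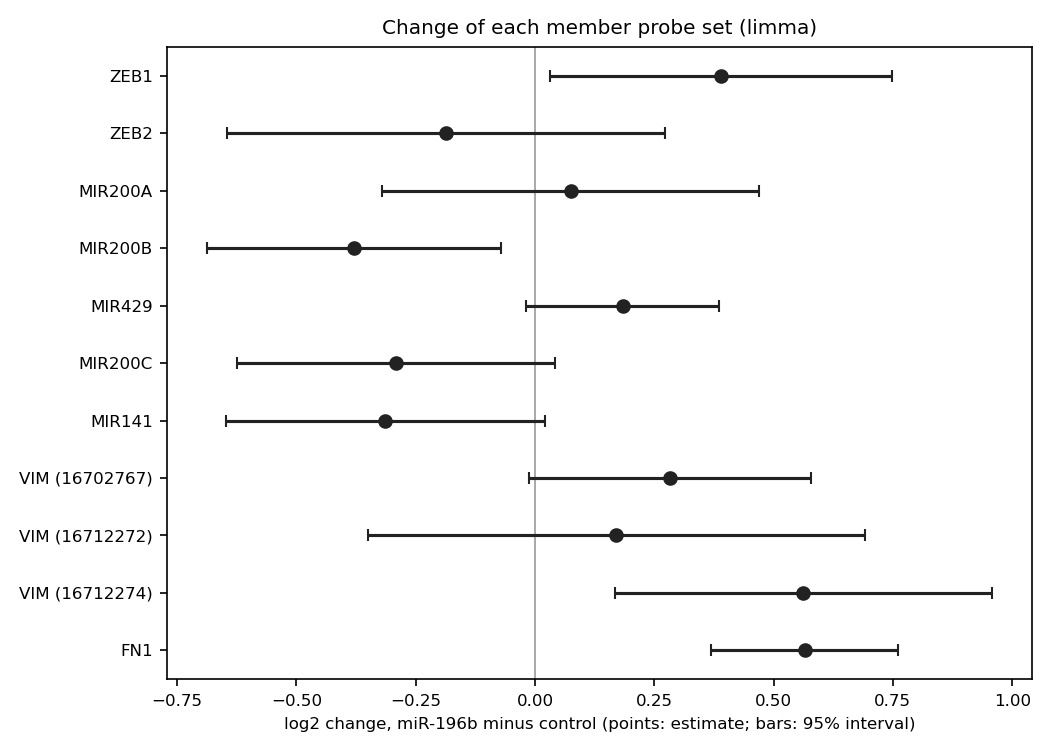
Log2 change, labelled miR-196b minus control (x axis), of each member probe set, with points for the limma estimate and bars for its 95% interval, not adjusted for the number of probe sets. The intervals of ZEB1, MIR200B, FN1 and VIM at 16712274 leave out 0, and that of FN1, from 0.37 to 0.76, lies farthest from it.

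Fibronectin, a matrix glycoprotein that cells bind through integrins and that mesenchymal cells deposit, gave the clearest difference among the members. FN1 was at 6.05, 6.15 and 6.02 in control and at 6.71, 6.52 and 6.68 in the labelled arrays (log2). Every labelled array lay above every control array, with 0.37 between the nearest 2. The mean went from 6.07 ± 0.068 to 6.64 ± 0.10 (mean and SD of 3 arrays, log2), a change of 0.56 (SE 0.084, 95% interval 0.37 to 0.76). That is 1.48-fold higher, at least 1.29-fold by the lower limit, and did not pass over all named probe sets (limma adjusted p = 0.160). It passed once the dimmest 40% had been left out (adjusted p = 0.0405), and likewise when the variance prior was trended and robust (0.0222). With 3 arrays on each side, an exact two-sided permutation p cannot be smaller than 0.1. The smallest change that the fit called at any gene was 0.67. One probe set covers FN1 here, so splice forms with and without the extra domains could not be told apart.

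Vimentin, the intermediate filament protein of mesenchymal cells, had 3 probe sets, and none passed. The first, 16702767, was at 4.52, 4.10 and 4.44 in control and at 4.76, 4.54 and 4.61 in the labelled arrays (log2). All labelled arrays lay above all controls, by 0.020 between the nearest 2, with a log2 change of 0.28 (95% interval -0.012 to 0.58, limma adjusted p = 0.507), which was 0.16 without control replicate 2. The second, 16712272, was at 4.70, 5.24 and 5.20 in control and at 4.91, 5.66 and 5.08 in the labelled arrays, with overlapping groups and a log2 change of 0.17 (95% interval -0.35 to 0.69, limma adjusted p = 0.824). The third, 16712274, was at 3.97, 4.20 and 3.79 in control and at 4.21, 4.70 and 4.74 in the labelled arrays. The groups were apart by 0.0065, and the log2 change was 0.56 (95% interval 0.17 to 0.96, limma adjusted p = 0.401).

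The VIM probe sets fall in different number ranges. Of the 20 probe sets nearest in number to 16702767, 20 belong to plus-strand genes of chromosome 10, the strand of VIM. For both 16712272 and 16712274, 18 of the 20 nearest belong to minus-strand genes. The probe set numbered with the strand of VIM was thus the one with a change of 0.28, and the larger change of 0.56 came from one numbered with the opposite strand. Averaged over its 3 probe sets, VIM had a log2 change of 0.34 (95% interval 0.10 to 0.57, limma adjusted p = 0.391). That mean includes 16712272 and 16712274, so whether it reads VIM alone is not settled.

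Genes next to the members were examined to see whether a stretch of chromosome moved with them. Around FN1, the nearest measured genes were ATIC, an enzyme of purine synthesis (log2 change 0.053), BARD1, the partner of BRCA1 (0.14), LINC00607 (0.094) and MREG (0.0057), and none passed the test. Around ZEB1, ZNF438 had 0.21, the 2 probe sets of ARHGAP12 -0.14 and 0.086, and the kinesin gene KIF5B -0.081. Around the chromosome 12 cluster, C12orf57 had 0.15, ATN1 -0.042, the prohibitin gene PHB2 0.0014 and SCARNA12 0.16, against -0.29 and -0.31 inside the cluster. Around the chromosome 1 cluster, LINC01342 had -0.30, C1orf159 -0.091, SDF4 -0.14 and PUSL1 -0.23, so that 4 of 4 neighbours were below 0. Inside the cluster MIR200B was below 0 as well, while MIR200A (0.074) and MIR429 (0.18) were above it. Over all named probe sets, 7733 of 16098 were below 0. The groups overlapped at LINC01342, C1orf159 and SDF4, and LINC01342 lay in the dimmest 40%. C1orf159 was 0.043 without labelled replicate 1. Around VIM, TRDMT1 had -0.15, CUBN 0.12, ST8SIA6-AS1 0.28 and STAM -0.031, and around ZEB2, QTMAN had 0.071, ARHGAP15 0.077 and TEX41 -0.063. No neighbour passed the adjusted test (limma adjusted p = 0.318 or above), and the difference between a member and its neighbours was not tested.

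**Figure D3:**
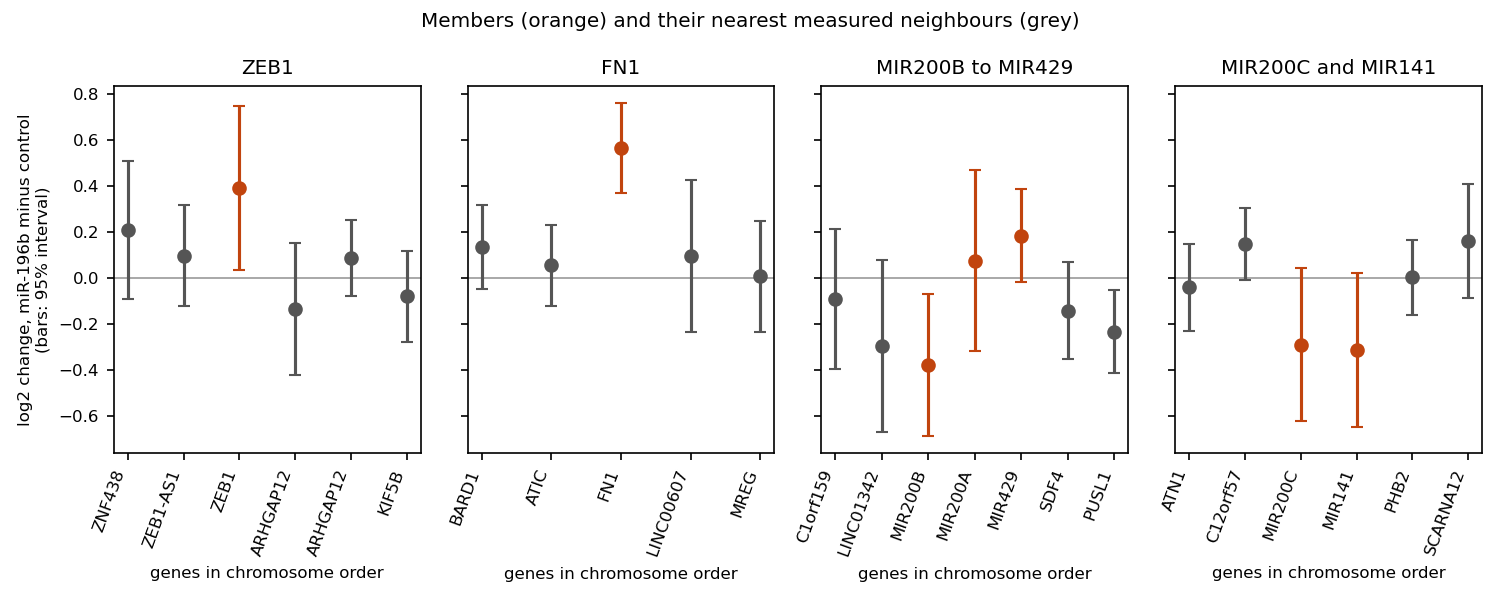
Log2 change, labelled miR-196b minus control (y axis), of ZEB1, FN1 and the 2 miR-200 clusters (orange) and of the 2 nearest measured genes on either side (grey), in chromosome order, with bars for 95% intervals. The 4 neighbours of FN1 lie between 0.0057 and 0.14, below the FN1 interval. The estimates for the neighbours of the chromosome 1 cluster all lie below 0, with intervals that hold 0 except at PUSL1.

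Other genes of the pathway were read from 11 lists with 109 probe sets of 102 genes. None of the 109 passed the adjusted test (smallest limma adjusted p = 0.251), 56 were higher and 53 lower, and their median change was 0.0020. At an unadjusted p below 0.05 there were 12, or 11.01%, beside 9.87% of all named probe sets, and the groups did not overlap at 24, or 22.0%, beside 17.2%. Members of other EMT factor families gave 6 higher and 7 lower of 13 (median -0.040). The factors SNAI2, also called Slug, had 0.32 (limma adjusted p = 0.504), KLF8 0.35 (0.452), PRRX1 -0.32 (0.487) and the homeobox gene GSC -0.37 (0.507), and none passed.

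Partners through which ZEB proteins repress or activate genes were higher at 7 of 9 probe sets and lower at 2 (median 0.089), and 0 passed the test. KAT2B, an acetyltransferase that binds ZEB1, was at 6.08, 6.34 and 6.23 in control and at 6.59, 6.61 and 6.53 in the labelled arrays, with separate groups (log2 change 0.36, limma adjusted p = 0.347). CTBP2, a corepressor, had 0.18, and the deacetylase HDAC1 had 0.14. HDAC2, another deacetylase, had 0.17 at 17022854 and -0.019 at 17011843, and none of these passed the test. TGF-beta is a signal that feeds into ZEB transcription, and its list holds both carriers and inhibitors of that signal, SKIL among the latter. The list count therefore gives no direction of the signal. In it 5 of 7 were higher (median 0.055, 0 called), with SMAD4 at 0.15, LTBP1 at 0.17, SMAD2 at 0.13 and SKIL at 0.055.

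Epithelial genes that ZEB1 or ZEB2 are reported to repress were higher at 8 of 25 probe sets and lower at 17 (median -0.063), and 0 passed. CGN, the tight junction protein cingulin, was at 5.48, 5.47 and 5.53 in control and at 4.62, 5.01 and 5.06 in the labelled arrays, lower in all 3 (log2 change -0.59, limma adjusted p = 0.318). TJP3, a scaffold of the same junctions, was at 7.10, 6.54 and 6.84 in control and at 7.19, 7.33 and 7.49 in the labelled arrays, higher in all 3 (0.50, adjusted p = 0.404). The splicing regulator ESRP2 had -0.20 (limma adjusted p = 0.478). KRT18, an epithelial keratin, had -0.22 at 16938654 (adjusted p = 0.405) and -0.10 at 16751554 (0.699). All 20 probe sets nearest in number to 16938654 belong to chromosome 3, whereas KRT18 lies on chromosome 12, so that probe set may read a copy of the gene and its value is uncertain.

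The colon epithelial markers, which share KRT18, KRT8 and EPCAM with the list above, had 6 of 7 probe sets lower and a median of -0.12, with 0 called. Their mean level was 7.34 in every control array and 7.08 to 7.24 in the labelled arrays (log2). Both KRT18 probe sets are among the 7, so the uncertain 16938654 enters the count and this mean. KRT20, a keratin of differentiated colon cells, had -0.33 (limma adjusted p = 0.479), the intestinal factor CDX2 -0.26 (0.481) and EPCAM -0.12 (0.657). VIL1 alone was higher, at 0.056, and both VIL1 and KRT20 lay in the dimmest 40%. Whether the lower mean level of these markers has a part in the changes of the epithelial genes was not tested. The markers of other cells did not move together. The 3 measured fibroblast markers had 0.18 (LUM), -0.16 (THY1) and -0.015 (DCN), with a mean level of 3.08 to 3.20 in control and 3.06 to 3.22 in the labelled arrays. The 3 measured blood cell markers had 0.31 (CSF1R), -0.20 (CD68) and -0.013 (CD14), with a mean level of 4.85 to 4.92 and 4.82 to 5.06. In bulk RNA of a cell line, fewer cells that express a gene and less of its RNA per cell cannot be told apart.

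Of 20 other mesenchymal genes listed, 8 were measured, of which 5 were higher and 3 lower, between -0.16 and 0.19, with a median of 0.034. At an unadjusted p below 0.05 in limma there were 0, beside 9.87% of all named probe sets, and the difference from FN1 was not tested. FBN1, a microfibril protein, had 0.12, THY1 -0.16, the actin-binding protein TAGLN 0.19 and the calcium-binding protein S100A4 0.060. Genes that bind or help assemble fibronectin, of which 6 of 14 listed were measured, had 3 higher and 3 lower (median -0.031, 0 called), with the fibulins FBLN2 at -0.40 and FBLN1 at 0.12, the syndecan SDC2 at -0.31 and the adhesion protein TNS1 at 0.12. Vimentin partners had 3 of 7 probe sets higher and 4 lower (median -0.00048, 0 called), with the kinase PAK2 at -0.15, plectin (PLEC) at -0.11, nestin (NES) at 0.18 and AKT1 at 0.040 (16797157). Of the adherens junction list, with 5 of 10 genes measured, 3 were higher and 2 lower (median 0.057, 0 called), with NECTIN1 at -0.21, vinculin (VCL) at 0.17, the E-cadherin sheddase ADAM10 at 0.19 and plakoglobin (JUP) at 0.057.

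Reported targets of miR-200 other than the ZEB genes, 17 of 26 measured, had 10 higher and 7 lower (median 0.0074), with 0 called. At an unadjusted p below 0.05 in limma there were 3, all higher, beside 9.87% of all named probe sets (5.73% higher). JAG1, a Notch ligand, was at 9.04, 9.12 and 9.02 in control and at 9.41, 9.49 and 9.51 in the labelled arrays, with 0.29 between the nearest arrays of the 2 groups. Its log2 change was 0.41 (SE 0.073, limma adjusted p = 0.251), and it passed with a trended and robust variance prior (0.00354). RECK, an inhibitor of matrix proteases, had 0.31 (adjusted p = 0.359), and VEGFA, an angiogenic growth factor, 0.19 (0.504). Other microRNA genes reported to act on EMT, with 8 of 9 measured, had 5 probe sets higher and 4 lower (median 0.020, 0 called). MIR194-2 was at 6.44, 6.32 and 6.59 in control and at 5.87, 6.06 and 6.22 in the labelled arrays, lower in all 3 (log2 change -0.40, limma adjusted p = 0.390), while MIR194-1 had -0.25. MIR21 had 0.31, and MIR203A -0.27 at 16789400 and -0.011 at 16797121. The probe sets of MIR194-1 and MIR203A lay in the dimmest 40%.

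**Figure D4:**
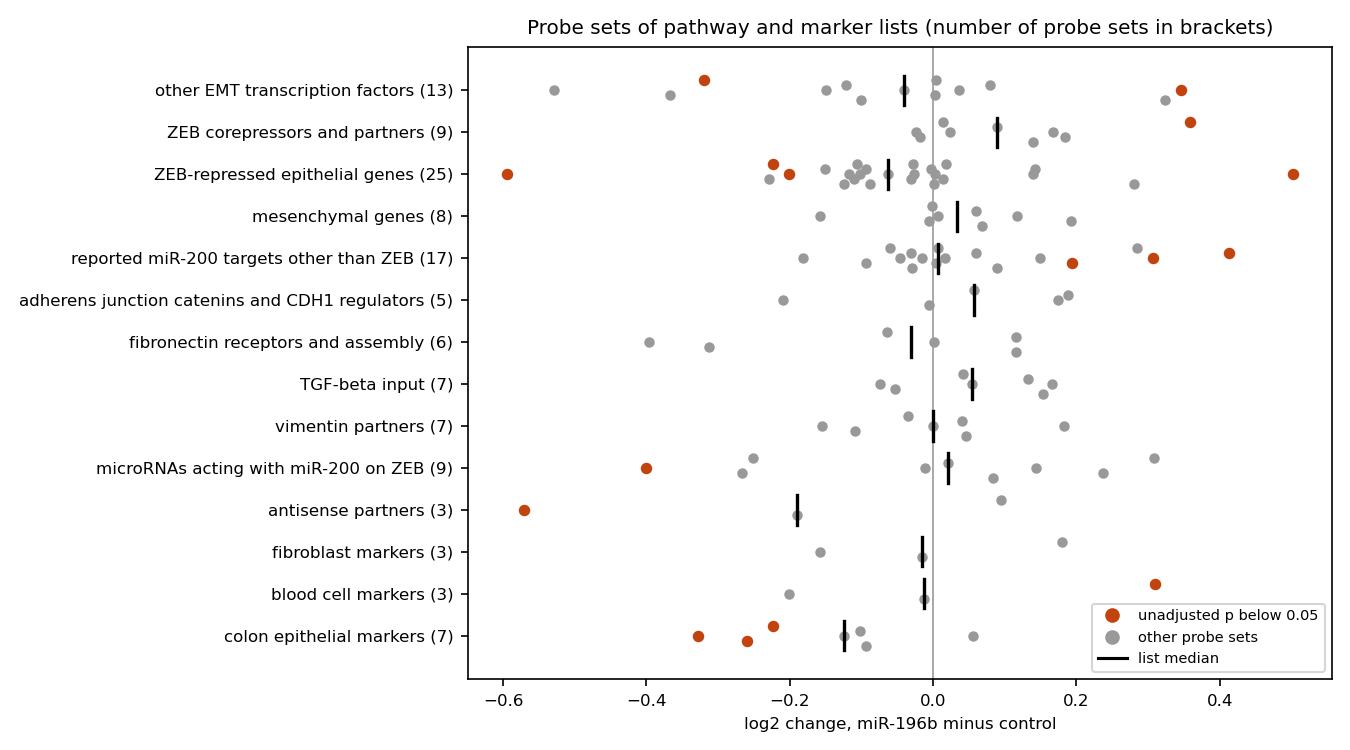
Log2 change, labelled miR-196b minus control (x axis), of every probe set in 11 pathway lists and 3 marker lists, with orange for an unadjusted limma p below 0.05 and a black line at each list's median. The list medians lie between -0.19 and 0.089, and CGN (-0.59) and TJP3 (0.50), in one list, lie at opposite ends.

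The protein-coding genes outside the dimmest 40% whose pattern over the 6 arrays was most like that of a member were found by the root mean square distance of values centred on each gene's mean, among 8592 probe sets. For FN1 these were APAF1, the scaffold of the apoptosome (distance 0.0562, log2 change 0.50), NBEAL1 (0.0728, 0.44), SPRY4, a feedback inhibitor of MAPK signalling (0.0732, 0.46), YPEL2 (0.0789, 0.43) and REPS2 (0.0827, 0.57). For ZEB1 they were HIVEP3, a zinc finger factor (distance 0.108, log2 change 0.46), TBX10 (0.111, 0.31), the glutamate dehydrogenase GLUD1 (0.111, 0.29), the nitric oxide synthase NOS3 (0.112, 0.32) and CCDC146 (0.115, 0.36). The distances for ZEB1 were larger than those for FN1. The distance takes in the difference between the groups, so changes of like sign and size follow from how the genes were picked. Their changes and test results are thus no separate evidence. None of the 10 passed the adjusted test (limma adjusted p = 0.173 to 0.495). With a trended and robust variance prior APAF1 (limma adjusted p = 0.00571), NBEAL1 (0.0281) and SPRY4 (0.00292) passed, and APAF1 also without the dimmest 40% (0.0405). None of the 8 measured genes of the mesenchymal list was among the 10. Their changes lay between -0.16 and 0.19, and the dim ones were not candidates, so nothing follows from their absence.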

How the data were processed

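The authors deposited log2 values for each probe set on each array. The submitters' processing notes list Partek 6.6 and RMA without settings, and base 2 was assumed since RMA gives it. RMA as usually run equalises the arrays, so a shift of all genes cannot be seen. The array medians were 4.34 to 4.37, no array repeated another, and the number of arrays limits the precision. Of 53617 probe sets, 16098 had 1 symbol in the platform annotation and were used. All their gene identifiers matched the RefSeq table of GRCh38.p14, which changed 0 symbols and gave gene order and chromosomes. Sequences are RefSeq's.

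Values were fitted in R 4.3.3 with limma 3.58.1 (lmFit, eBayes, group term alone, 4 residual and 3.23 prior degrees of freedom), with no further normalization or filter. The median within-group SD was 0.128. On simulated data with 16098 probe sets the fit recovered, of 50 genes planted per fold size, 4% of those changed 1.25-fold, 76% of those changed 1.5-fold, 96% of those changed 2-fold and all of those changed 4-fold. It made 5 false calls. Planting the sizes together eases the adjusted threshold. The simulated noise was drawn from the moderated variances, which are more alike than the unmoderated ones. Recovery on the real arrays may therefore be lower.

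The members, the 11 pathway and 3 marker lists, the rule for named genes and the tests were chosen with earlier results of these data known. Named were all members, the 4 smallest p of each list, the 2 nearest measured genes on each side of a member, and the 5 probe sets most like ZEB1 and FN1. One gene that this rule names is not reported here. MIR196B and MIR196A2 served as the check of the labels. VIL1 was named as the colon marker that was higher. Alternatives covered dim probe sets, the variance prior and its moderation, median centring, quantile normalization, array weights, a replicate block, unnamed probe sets, each array left out and gene means. Scan dates were not used here, and no batch test was made.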

Additional observations from a re-analysis of the deposited data

How the results depend on the processing

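FN1, the member nearest the threshold, had a log2 change of 0.53 to 0.62 over 15 alternatives, an adjusted p of 0.0222 to 0.489 in limma, and passed in 2 of them. No other member passed under any of the alternatives. The count of member probe sets called went from 0 to 1 without the dimmest 40% of probe sets and to 1 with a trended and robust variance prior, and stayed at 0 with each array left out (0 to 0). The context lists went from 0 to 2 with that prior (JAG1 higher and KRT18 at 16938654 lower) and stayed at 0 with each array left out (0 to 0). Over all named probe sets the 9 calls became 22 without the dimmest 40%, 91 with that prior, 5 with no variance moderation and 2 to 3 with each array left out.

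The deviations of same-numbered arrays from their group means correlated with r = 0.0305, 0.0369 and 0.00850, and 4 of the 6 arrays correlated best with their own number. Whether the replicate numbers pair the arrays was not tested. With the replicate number as a block the count of calls over all named probe sets was 1, and that of members 0.

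No estimate whose sign turned had passed the test. With each array left out in turn, the log2 change was -0.10 to 0.25 for MIR200A and -0.051 to 0.32 for VIM at 16712272. The same range was -0.012 to 0.35 for TAGLN, -0.049 to 0.20 for S100A4, -0.056 to 0.21 for FBLN1, -0.12 to 0.040 for DCN and -0.11 to 0.050 for CD14. Among neighbours it was -0.21 to 0.043 for C1orf159, -0.070 to 0.019 for STAM, -0.022 to 0.24 for CUBN, -0.089 to 0.015 for ATN1, -0.021 to 0.024 for PHB2, -0.14 to 0.028 for TEX41, -0.019 to 0.14 for QTMAN, -0.015 to 0.23 for LINC00607 and -0.064 to 0.098 for MREG. CD14 was 0.00720 with array weights, ARHGAP12 -0.025 as a gene mean, PHB2 -0.00624 and MREG -0.00194 with median centring, and PHB2 -0.00718 and MREG -0.0101 with a repeated quantile normalization.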
